A study of Mus musculus with 12 samples.

Results

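The 9 genes described here encode the core of insulin and insulin-like growth factor (IGF) signalling: the receptors Insr and Igf1r, the receptor substrates Irs1 and Irs2, the phosphoinositide 3-kinase (PI3K) subunit Pik3r1, the kinases Akt1 and Akt2, and the transcription factors Foxo1 and Foxo3. They were chosen by symbol, and all 9 were found among the 14089 genes counted. The RNA came from isolated islets of C57BL/6J mice, the clusters of endocrine cells of the pancreas, in 12 libraries of 4 groups of 3. One group received vehicle only, one ML351 at 10 µM, and one a mixture of 3 cytokines: IFN-γ at 100 ng/ml, TNF-α at 10 ng/ml and IL-1β at 5 ng/ml. The last group had this mixture with ML351 at the same doses, called the combination here. Each treatment lasted 24 hours. ML351 blocks 12/15-lipoxygenase, which adds oxygen to fatty acids, and the design asks how cytokines, the inhibitor and both together change islet transcripts.

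Insulin and IGFs bind receptor tyrosine kinases, which phosphorylate IRS proteins. These recruit PI3K, whose lipid product brings AKT to the membrane. Active AKT phosphorylates FOXO factors and so keeps them out of the nucleus. In β cells the pathway is known for its part in cell mass, survival and identity, with Irs2 as a main substrate and Foxo1 as a regulator of the response to metabolic stress.

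The 9 genes lie on 7 chromosomes of GRCm38, the assembly also called mm10, by GENCODE M21. Insr spans chr8:3122061-3279617 and Irs2 chr8:10984681-11008458, both on the minus strand. Igf1r spans chr7:67952827-68233668 and Akt2 chr7:27591552-27640826, both on the plus strand. Irs1 lies at chr1:82233101-82291416 on the minus strand, and Pik3r1 at chr13:101680563-101768217 on the minus strand. Akt1 is at chr12:112653821-112674884 (minus), Foxo1 at chr3:52268336-52353221 (plus) and Foxo3 at chr10:42181841-42276755 (minus). The library kit does not record the strand, so reads of a gene and of an overlapping or antisense partner cannot be told apart where their exons overlap. Partners with an overlapping span were listed for Insr (Gm16180, Vmn2r-ps88), Irs1 (Gm9747), Irs2 (9530052E02Rik), Foxo1 (Gm20402, Gm38034), Pik3r1 (Gm36638) and Akt1 (Mir6939). Whether their exons overlap was not checked.

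Promoter sequence was available from RefSeq (GRCm38.p6) for 8 of the 9 genes, as 13 start sites. The 250 bases before each start were searched on both strands for 6 motifs: FOXO (GTAAACA), the interferon-stimulated element ISRE (GAAA, any 2 bases, GAAA), the STAT element GAS (TTCNNNGAA), an NF-κB motif (GGG, any 2 bases, TTTCC), an E-box (CACGTG) and a CRE (TGACGTCA). Across the 32851 promoters of the RefSeq table these windows held them in 3.17%, 2.98%, 7.02%, 1.41%, 6.02% and 1.55% of cases. Matches were found at 4 of the 13 start sites, those of Irs1 and Irs2 and the first of Akt1 and of Akt2. These 4 are shown because they held a match. Capitals mark the matched motif, each sequence is read 5′ to 3′ on the gene's own strand, and a match is a description of the letters only.
Irs1, chr1:82291440-82291689: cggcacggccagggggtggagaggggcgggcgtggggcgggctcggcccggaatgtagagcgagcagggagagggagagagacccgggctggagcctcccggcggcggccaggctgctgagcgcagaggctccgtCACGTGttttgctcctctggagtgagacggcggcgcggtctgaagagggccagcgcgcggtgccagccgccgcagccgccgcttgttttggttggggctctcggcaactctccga
Irs2, chr8:11008930-11009179: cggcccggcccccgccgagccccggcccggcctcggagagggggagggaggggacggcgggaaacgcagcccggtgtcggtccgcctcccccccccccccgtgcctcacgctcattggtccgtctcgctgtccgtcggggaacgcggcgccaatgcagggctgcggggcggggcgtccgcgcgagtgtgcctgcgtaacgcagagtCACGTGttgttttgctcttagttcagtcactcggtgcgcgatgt
Akt1, chr12:112674885-112675134: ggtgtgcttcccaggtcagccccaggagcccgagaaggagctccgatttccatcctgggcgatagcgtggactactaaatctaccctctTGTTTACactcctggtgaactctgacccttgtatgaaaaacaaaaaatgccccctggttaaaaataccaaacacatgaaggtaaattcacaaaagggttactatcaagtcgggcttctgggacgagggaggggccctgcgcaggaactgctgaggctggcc
Akt2, chr7:27591302-27591551: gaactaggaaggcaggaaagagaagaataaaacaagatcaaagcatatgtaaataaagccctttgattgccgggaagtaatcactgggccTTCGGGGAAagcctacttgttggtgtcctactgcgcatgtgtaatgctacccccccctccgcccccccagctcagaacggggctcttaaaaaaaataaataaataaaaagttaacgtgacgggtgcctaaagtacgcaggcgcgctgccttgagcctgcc
Irs1 and Irs2 each held an E-box, starting 115 and 44 bases before the start site. Both windows were rich in G and C, at 72.4% with 28 CpG for Irs1 and 72.8% with 34 CpG for Irs2, against a median of 52.4% and 6 CpG over all promoters. So were those of Igf1r (77.6%, 42 CpG) and Foxo3 (76.4%, 31 CpG) and the first of Pik3r1 (76.4%, 30 CpG). Foxo1 had 56.0% with 20 CpG and the second Pik3r1 site 42.4% with 6 CpG. The first start site of Akt1 held a FOXO motif at 161 bases and that of Akt2 a GAS motif at 160 bases before the start. Their windows had 52.0% G and C with 7 CpG for Akt1 and 48.8% with 10 CpG for Akt2. The second Akt1 start site differed, with 78.4% G and C, 31 CpG and no match. The later Akt2 sites had 51.2% to 58.8% with 0 to 5 CpG and no match.

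Library totals ran from 20208286 to 27193026 counts. Levels are given in CPM, counts scaled to a common library total after TMM adjustment. The labelled tissue was checked by its markers: the 10 beta cell markers summed to between 333200 and 379900 CPM in the vehicle libraries and to between 290200 and 343100 CPM in the cytokine libraries. Most of that sum is Ins1, Ins2 and Iapp. Of the 10 beta cell markers 8 fell and 0 rose with cytokines (median log2 fold change -2.95), among them Mafa, from 165 to 6.66 CPM, picked after its value was seen. Markers of other cells moved with the cytokines too. The 6 alpha cell markers all fell (34930 to 39100 CPM in vehicle against 723.2 to 1354 CPM with cytokines). The 3 delta cell markers (1375 to 1438 against 91.69 to 135.9 CPM) and the 10 endothelial markers (104.5 to 114.2 against 25.28 to 33.0 CPM) also all fell. Of the stellate and fibroblast markers 7 of 10 fell and 1 rose (110.2 to 344.8 against 46.56 to 73.51 CPM). Of the macrophage markers 6 of 11 rose and 1 fell (212.4 to 219.7 against 311.8 to 334.8 CPM), and of the ductal markers 4 of 6 rose (739 to 916.5 against 2105 to 2767 CPM). Acinar sums ran from 222.8 to 561.5 CPM in vehicle, from 191.7 to 298.1 CPM with ML351 and from 33.42 to 663 CPM with cytokines. With the combination they were higher, from 748.7 to 1109 CPM. In the combination against ML351, 7 of 10 acinar markers were called higher and 1 lower, against 35.2% and 36.4% of all genes. None of the 68 markers counted had a group mean of 0. In bulk islets, fewer cells of a type and less RNA per cell cannot be told apart, and the part of these shifts in the values below was not tested.

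Levels of different genes were compared per kilobase of exon. In vehicle islets Akt1 was highest at 50.9 ± 1.05 CPM per kb (SD, n = 3, as for all such values), followed by Akt2 at 14.2 ± 0.779, Foxo1 at 8.22 ± 0.256 and Irs2 at 6.84 ± 0.652. Pik3r1 (3.67 to 4.05 CPM per kb) and Igf1r (3.40 to 3.88) overlapped in this order, as did Insr (0.636 to 0.697) and Irs1 (0.544 to 0.705). Foxo3 was lowest at 0.198 ± 0.0190 CPM per kb. With cytokines Akt1 (38.0 ± 3.44) and Akt2 (23.1 ± 1.13) remained the highest, Irs2 (6.72 ± 0.249) and Igf1r (5.63 ± 0.293) stood above Foxo1 (3.83 ± 0.373), and Irs1 was lowest at 0.131 ± 0.0139 CPM per kb. The AKT kinases were thus the most abundant per length in both groups.

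**Figure D1:**
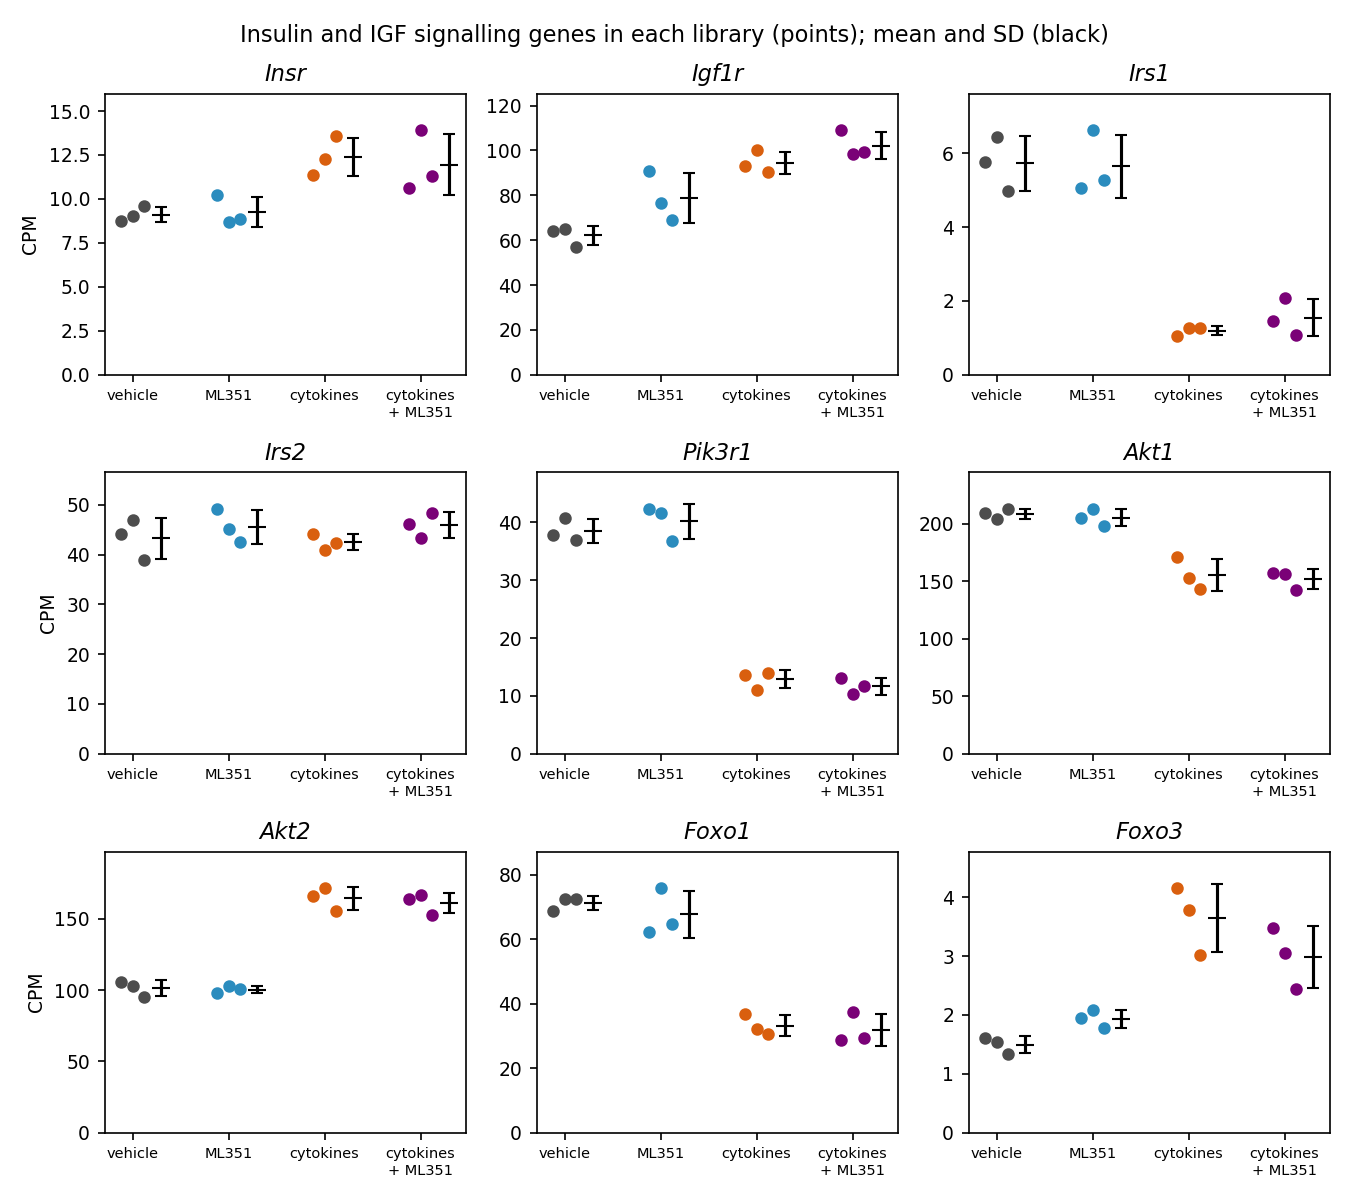
Transcript level of each of the 9 genes in CPM (linear axes from 0, 1 panel a gene) in the 12 libraries, with points for libraries and black marks for the mean and SD of each group of 3. Irs1, Pik3r1, Akt1 and Foxo1 sit lower in every library with cytokines than in any without, Insr, Akt2 and Foxo3 sit higher, Igf1r is highest on average with the combination, and Irs2 lies between 38.8 and 49.1 CPM throughout.

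Cytokines against vehicle asks how inflammation alone changed these genes. Irs1, Pik3r1, Foxo1 and Akt1 fell, Foxo3, Akt2, Igf1r and Insr rose, and Irs2 did not pass the test. Thus 8 of 9 were called at an adjusted p under 0.05 by the quasi-likelihood test of edgeR, 4 in each direction. The background was high, since 72.5% of all genes were called (35.3% higher and 37.2% lower), so the share called does not set these genes apart. The same 8 genes had groups that did not overlap, as did 76.6% of all genes. The median log2 fold change was -0.03 over the 9 genes and -0.02 over all genes. By size, 89.5% of all genes changed less than Irs1 did, 81.5% less than Pik3r1, 75.2% less than Foxo3, 69.5% less than Foxo1, and 33.4% less than Akt1. Because the labels name neither animals nor cultures for the libraries, each p-value reflects sample-to-sample spread, part or all of which may be technical.

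The cytokine response can be read a second time, in the presence of ML351, from the combination against ML351 alone, which shares no library with the first comparison. The same genes rose (Insr, Igf1r, Akt2 and Foxo3) and fell (Irs1, Pik3r1, Akt1 and Foxo1) by the edgeR test, against 71.5% of all genes called (35.2% higher and 36.4% lower). Groups did not overlap for 8 of the 9 genes and for 74.0% of all genes. The median log2 fold change was 0.01 over the 9 genes. Both comparisons are given for each gene below, by its place in the pathway.

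**Figure D2:**
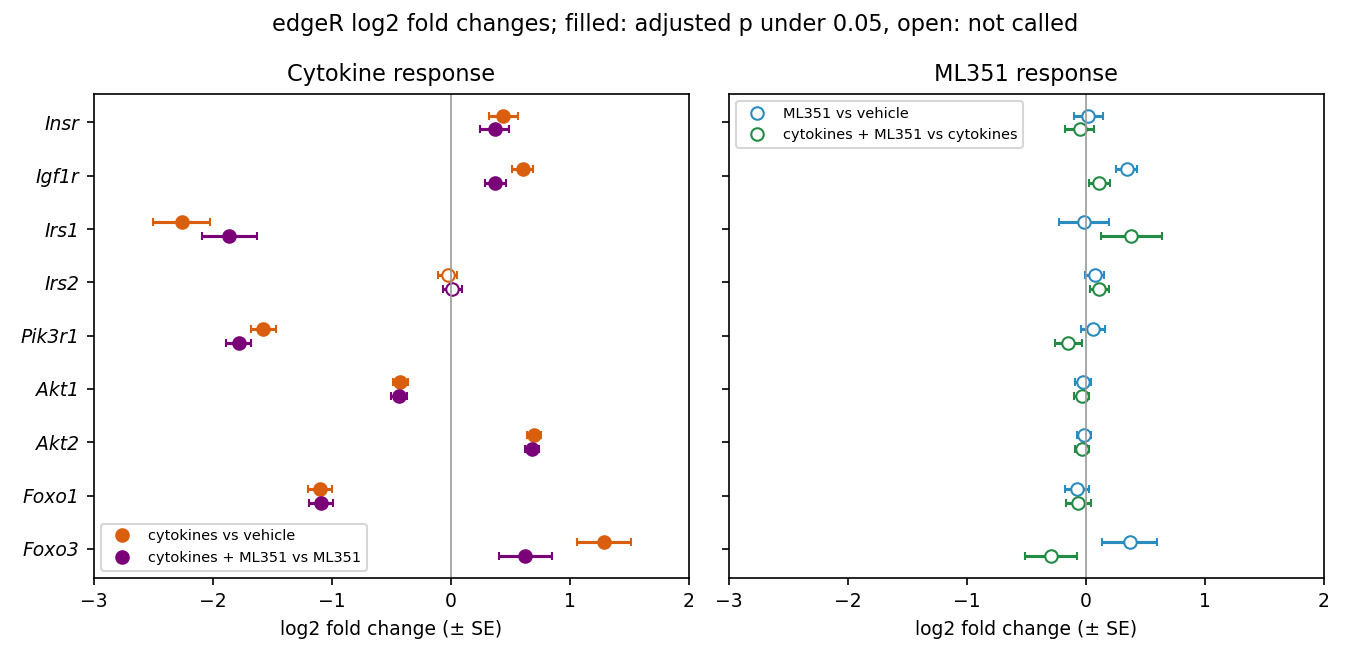
Log2 fold changes of the 9 genes from edgeR with bars of 1 SE, for the cytokine response without and with ML351 (left) and the ML351 response without and with cytokines (right). Filled points passed an adjusted p of 0.05. The cytokine changes run from -2.26 for Irs1 to 1.29 for Foxo3, and no ML351 change is filled.

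Insr, the insulin receptor, had 8.74, 9.02 and 9.58 CPM in the vehicle libraries and 11.4, 12.3 and 13.6 CPM with cytokines. All 3 cytokine libraries were above all 3 vehicle libraries, and Insr rose by 0.44 on the log2 scale (SE 0.12, edgeR adjusted p = 0.00417). With ML351 alone it had 10.2, 8.67 and 8.86 CPM and with the combination 10.6, 13.9 and 11.3 CPM, which was higher by 0.37 (SE 0.12, adjusted p = 0.0132). That call was lost without the combination's replicate 2, the library at 13.9 CPM (0.25, adjusted p = 0.0909), and without ML351 replicate 2 (0.32, adjusted p = 0.0533). It was also lost with scaling by library totals alone (0.29, adjusted p = 0.0623). Insr rested on 193 to 315 counts a library.

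Igf1r, the receptor that binds IGFs with high affinity, had 64.1, 65.2 and 57.1 CPM in vehicle and 93.0, 100.03 and 90.5 CPM with cytokines. The groups did not overlap, and Igf1r rose by 0.60 (SE 0.088, edgeR adjusted p = 9.24e-06). Under ML351 alone it had 91.0, 76.8 and 69.0 CPM, a wider spread than in vehicle, and the combination had 109, 98.3 and 99.2 CPM. The combination stood above every ML351 library, with a log2 fold change of 0.37 (SE 0.087, adjusted p = 0.00105). Ordered by mean, Igf1r went from 62.1 ± 4.37 CPM in vehicle through 78.9 ± 11.2 with ML351 and 94.5 ± 4.93 with cytokines to 102 ± 5.95 with the combination. The ML351 and cytokine libraries overlapped in that order, and so did the cytokine and combination libraries.

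Irs1, the substrate that links the receptors to PI3K in many tissues, showed the largest change of the 9 genes. It had 5.77, 6.45 and 4.97 CPM in vehicle (136, 138 and 108 counts) and 1.05, 1.28 and 1.26 CPM with cytokines (26, 26 and 25 counts). Every cytokine library lay far below every vehicle library, and Irs1 fell by 2.26 on the log2 scale (SE 0.24, edgeR adjusted p = 1.76e-07). With ML351 alone it had 5.06, 6.63 and 5.28 CPM and with the combination 1.47, 2.08 and 1.09 CPM, which was again lower in every library (log2 fold change -1.86, SE 0.23, adjusted p = 1.43e-06). The combination libraries held 21 to 47 counts. Their SD was 32.3% of the mean (1.54 ± 0.498 CPM), the widest of the 9 genes in the 4 groups, against 10.6% in the cytokine libraries.

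Irs2, the substrate most studied in β cells, stayed between 38.8 and 49.1 CPM in all 12 libraries. It had 44.1, 46.9 and 38.8 CPM in vehicle and 44.1, 40.9 and 42.4 CPM with cytokines, and the groups overlapped. The log2 fold change was -0.03 (SE 0.078, edgeR adjusted p = 0.771), and only 2.2% of all genes had a smaller one. With ML351 alone it had 49.1, 45.1 and 42.4 CPM and with the combination 46.1, 43.3 and 48.4 CPM, a log2 difference of 0.01 (SE 0.078, adjusted p = 0.89). The 2 substrates therefore differed in the size of their cytokine values: Irs1 lost most of its transcripts while the Irs2 groups overlapped.

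Pik3r1 encodes the p85α regulatory subunit, which holds and stabilises the catalytic subunit of PI3K and docks it on IRS proteins. It had 37.8, 40.8 and 37.0 CPM in vehicle and 13.6, 11.1 and 14.0 CPM with cytokines. The highest cytokine library was far below the lowest vehicle library, and Pik3r1 fell by 1.58 on the log2 scale (SE 0.11, edgeR adjusted p = 4.29e-10). With ML351 alone it had 42.3, 41.6 and 36.7 CPM and with the combination 13.1, 10.2 and 11.7 CPM (log2 fold change -1.78, SE 0.11, adjusted p = 1.01e-10). Both of these changes had small errors next to their size.

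Akt1 and Akt2, kinases with overlapping substrates, moved in opposite directions. Akt1 had 209.7, 204 and 213 CPM in vehicle and 171, 153 and 143 CPM with cytokines, and fell by 0.42 (SE 0.065, edgeR adjusted p = 1.66e-05). Akt2, the form best known for its part in insulin action on glucose, had 106, 103 and 95.2 CPM in vehicle and 166, 171 and 156 CPM with cytokines, and rose by 0.70 (SE 0.060, adjusted p = 1.34e-08). Neither gene's groups overlapped. With ML351 alone Akt1 had 205, 213 and 198 CPM and with the combination 157, 156 and 142 CPM (log2 fold change -0.44, SE 0.065, adjusted p = 1.28e-05). Akt2 had 97.8, 103 and 101 CPM with ML351 alone and 163, 167 and 153 CPM with the combination (0.68, SE 0.060, adjusted p = 1.9e-08). Spread within a group was small, with SDs of 2.06% to 9.06% of the mean in the 4 groups for Akt1 and 2.45% to 5.48% for Akt2.

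Foxo1 and Foxo3, the FOXO factors that AKT phosphorylates, also moved apart. Foxo1 had 68.7, 72.5 and 72.5 CPM in vehicle and 36.8, 32.1 and 30.7 CPM with cytokines, and fell by 1.10 on the log2 scale (SE 0.10, edgeR adjusted p = 8.32e-08). Its vehicle libraries stood well above its cytokine libraries. With ML351 alone it had 62.3, 75.8 and 64.8 CPM and with the combination 28.6, 37.4 and 29.2 CPM (log2 fold change -1.09, SE 0.10, adjusted p = 1.01e-07).

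Foxo3 was sparse, with 1.61, 1.54 and 1.34 CPM in vehicle (38, 33 and 29 counts) and 4.15, 3.78 and 3.02 CPM with cytokines (103, 77 and 60 counts). It rose by 1.29 (SE 0.23, edgeR adjusted p = 7.73e-05), with no overlap between groups. With ML351 alone it had 1.95, 2.08 and 1.77 CPM and with the combination 3.47, 3.05 and 2.44 CPM, a rise of 0.62 (SE 0.22, adjusted p = 0.0193). The call with ML351 present was lost without ML351 replicate 3 (0.57, adjusted p = 0.061) or the combination's replicate 1 (0.51, adjusted p = 0.0819). Foxo3 rested on 29 to 103 counts a library.

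ML351 against vehicle asks what the inhibitor did to unstimulated islets. None of the 9 genes was called by edgeR (0 of 9, against 0.0355% of all genes), 1 had an unadjusted p under 0.05 (8.98% of all genes), and DESeq2 called 1. That gene was Igf1r, whose 3 ML351 libraries were all above the 3 vehicle libraries given above (log2 fold change 0.34, SE 0.088, edgeR adjusted p = 0.183). DESeq2 gave it the same size with an adjusted p = 0.0443. Over 20 alternative settings its value ran from 0.22 to 0.43 and its adjusted p from 0.0443 to 0.679. Foxo3 groups did not overlap either, at 1.34 to 1.61 CPM in vehicle and 1.77 to 2.08 CPM with ML351 (0.37, SE 0.23, adjusted p = 0.704). Groups failed to overlap for 2 of the 9 genes and 15.9% of all genes. The other 7 genes had log2 fold changes from -0.07 to 0.07. This comparison shares its vehicle libraries with cytokines against vehicle.

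The combination against cytokines asks what ML351 did to islets treated with cytokines. No member of the set was called by edgeR or DESeq2, with 0 of 9 at an unadjusted p under 0.05 (15.7% of all genes), and in none were the groups free of overlap (20.4% of all genes had no overlap). Of all genes 1.43% were called, 91 higher and 111 lower, or 56 and 22 with scaling by library totals alone and 71 and 142 with RLE size factors. The largest differences were 0.38 for Irs1 (SE 0.26, edgeR adjusted p = 0.502), at 1.19 ± 0.127 CPM with cytokines and 1.54 ± 0.498 CPM with the combination, and -0.29 for Foxo3 (SE 0.22, adjusted p = 0.554), at 3.65 ± 0.575 and 2.98 ± 0.520 CPM. Pik3r1 differed by -0.15 and Igf1r and Irs2 each by 0.11, while Insr, Akt1, Akt2 and Foxo1 lay between -0.06 and -0.03.

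The interaction tests whether the cytokine response differed with ML351 present. None of the 9 genes was called by edgeR or DESeq2, and 0 had an unadjusted p under 0.05. Over all genes 0.0071% were called and 8.23% had such a p. Foxo3 was nearest, with a cytokine response smaller by 0.66 on the log2 scale in the presence of ML351 (interaction -0.66, SE 0.32, edgeR adjusted p = 0.608). The Igf1r interaction was -0.23 (SE 0.12, adjusted p = 0.637), that of Irs1 0.40 (SE 0.33, adjusted p = 0.814) and that of Pik3r1 -0.21 (SE 0.15, adjusted p = 0.755). Insr had -0.07, and the other 4 genes lay between -0.02 and 0.04. A difference in cytokine response with ML351 present was thus not shown for any of the 9 genes, including Foxo3 and Insr, whose calls in its presence were lost in some settings.

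Ratios between paired genes, per length and within a library, show how the makeup of the pathway shifted. Irs2 stood at 10.5 to 11.3 times Irs1 in the vehicle libraries, 9.83 to 14.0 times with ML351, 46.4 to 60.8 times with cytokines and 30.2 to 64.3 times with the combination. Akt1 stood at 3.59 ± 0.255 times Akt2 in vehicle and 3.56 ± 0.122 times with ML351, against 1.65 ± 0.125 and 1.64 ± 0.0302 times with cytokines and the combination. The ratio of Foxo1 to Foxo3 was 41.9 ± 5.16 in vehicle, 30.6 ± 2.34 with ML351, 8.01 ± 0.758 with cytokines and 9.47 ± 1.96 with the combination. These 3 ratios had no overlap between libraries with and without cytokines. The ratio of Igf1r to Insr was 4.88 to 6.00 in the vehicle libraries, 6.37 to 7.28 with ML351, 5.47 to 6.70 with cytokines and 5.79 to 8.42 with the combination. For this ratio the cytokine libraries overlapped vehicle, while those with ML351 alone did not. Pik3r1 stood at 0.965 times Pik3ca, a catalytic PI3K subunit, in vehicle and at 0.420 times with cytokines. No test was made of the ratios, since they follow from the fold changes above.

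**Figure D3:**
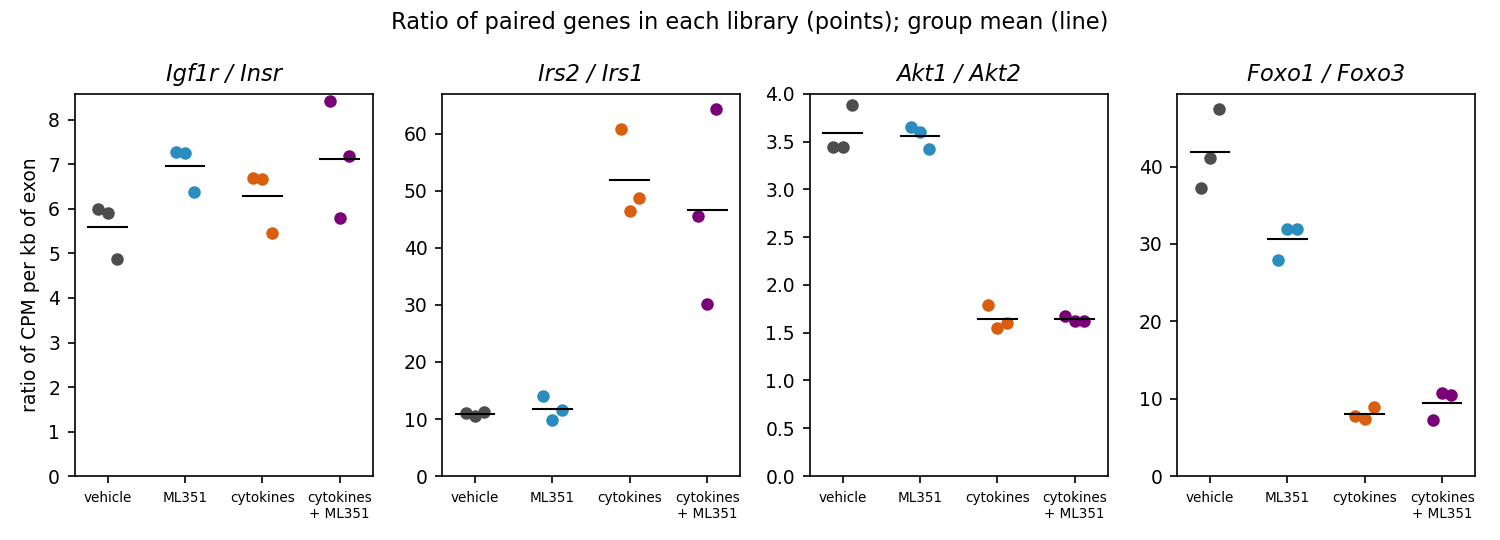
Ratio of per-length levels within each library for 4 pairs of genes (linear axes from 0), with points for the 12 libraries and lines for group means. Cytokine libraries, with or without ML351, separate from the others for Irs2 to Irs1, Akt1 to Akt2 and Foxo1 to Foxo3.

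The wider pathway was followed in a list of 123 genes besides the 9, of which 115 were counted. With cytokines 44 rose, 47 fell and 24 were not called by edgeR, against 35.3% of all genes called higher and 37.2% lower. The list's median log2 fold change was -0.05, and that of all genes -0.02. The combination against ML351 gave 45 higher and 42 lower of 115, against 35.2% and 36.4% of all genes. The counts by role below stand against these same shares, and no role was tested as a group. Like the 9 genes, the list was split in direction.

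Among ligands and related receptors 3 of 6 fell and 0 rose. Insrr, the insulin receptor-related receptor, went from 200 to 28.6 CPM (log2 fold change -2.80, SE 0.086, edgeR adjusted p = 1.6e-14). Ins1 fell by 0.60 (adjusted p = 5.45e-05) from 76900 to 50600 CPM, while Ins2 had -0.07 (adjusted p = 0.539); these near-identical insulin genes can share reads, so their split is uncertain. Igf1 fell by 1.13 (SE 0.40, adjusted p = 0.0177) at 1.27 to 0.575 CPM, a call lost without cytokine replicate 4 (-0.94, adjusted p = 0.0699) or vehicle replicate 2 (-1.06, adjusted p = 0.0502). Igf2 was under 1 CPM in both groups (0.46, adjusted p = 0.37). IGF-binding proteins hold IGFs outside cells. In this role of the list, in which Igfals was counted with them, 4 of 5 genes fell. Among these were Igfbp5 (45.8 to 6.14 CPM, -2.90, edgeR adjusted p = 4.87e-13), Igfbp7 (-1.43) and Igfals (-1.36). Endothelial (10 of 10) and stellate and fibroblast markers (7 of 10) fell in the same libraries, with the sums given above, and their part in these changes was not tested.

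Adaptors and inhibitors close to the receptor moved both ways. Of 8 adaptors 4 rose and 3 fell: Grb2, which couples receptors to RAS, rose by 1.45 (49.6 to 136 CPM, edgeR adjusted p = 2.29e-12), whereas Gab1 (-1.23) and Shc1 (-0.77) fell. Of 9 receptor inhibitors and phosphatases 4 rose and 3 fell. Socs1, an inhibitor of cytokine receptor and IRS signalling, rose by 5.81 (SE 0.20, adjusted p = 7.19e-13) from 0.837 to 47.4 CPM. The tyrosine phosphatases Ptpn2 (1.67) and Ptpn1 (1.25), which act on the insulin receptor, rose as well, and the receptor-binding inhibitor Grb10 fell (-0.91, adjusted p = 7.68e-08).

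Of the 8 PI3K subunits other than Pik3r1, 5 were called lower and 1 higher, against 37.2% and 35.3% of all genes. The other regulatory subunits named here followed Pik3r1 in direction: Pik3r3 went from 41.0 to 8.36 CPM (-2.28, SE 0.13, edgeR adjusted p = 3.54e-11) and Pik3r2 from 72.7 to 34.3 CPM (-1.08, adjusted p = 9.18e-10). The catalytic subunit Pik3ca fell by 0.37 (adjusted p = 0.000414) and the class II enzyme Pik3c2a by 0.55, while Pik3cd, the subunit typical of leukocytes, rose by 1.04. Pik3cd was low, at 2.41 CPM in vehicle and 4.98 CPM with cytokines, and was picked after its value was seen. In the combination against ML351, Pik3r3 (-2.10) and Pik3r2 (-0.98) were lower too. Of 9 lipid and AKT phosphatases and AKT inhibitors 3 rose and 3 fell. Trib3, a pseudokinase that binds AKT, rose from 33.0 to 301 CPM (3.19, SE 0.074, adjusted p = 3.32e-16). Ppp2ca, a catalytic subunit of protein phosphatase 2A, rose by 0.52, and the lipid phosphatase Inppl1 fell by 0.58.

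Downstream of PI3K, 3 of 4 AKT kinases and activators rose and 0 fell. Mapkap1, a part of mTORC2, rose by 0.72, and Pdpk1, which phosphorylates AKT, by 0.18 (edgeR adjusted p = 0.0368, lost with library totals alone at 0.12, adjusted p = 0.22, and without cytokine replicates 1 or 4 or vehicle replicates 1 or 4, at 0.14 to 0.20). Of the mTORC1 genes 7 of 17 rose and 7 fell, with Eif4ebp1 (1.75) and Rps6 (0.91) higher and Mlst8 (-1.01) lower. Of 6 other AKT substrates and GSK3 genes 3 rose (Mdm2 by 1.39 and Gsk3a by 0.77 among them) and 2 fell (Tbc1d1 by 1.26 among them).

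FOXO-related genes showed no single direction. Foxo6 fell by 1.12 (16.3 to 7.47 CPM, edgeR adjusted p = 2.91e-07), Ywhaz, a 14-3-3 protein that binds phosphorylated FOXO, rose by 0.48, and the deubiquitinase Usp7 fell by 0.40. In this role 2 of 7 rose and 2 fell, and Foxo4 is not analysed here. Of 26 genes known as FOXO targets 11 rose and 11 fell, with a median of 0.00. Sod2 (3.25), Tnfsf10 (3.26) and Cdkn1a (3.01), which respond to other signals too, rose. Pdk4 (-5.67) and the β cell glucose-6-phosphatase G6pc2 (-3.37) fell, both picked after their values were seen. In the ERK arm 6 of 10 rose, with Nras (1.46) and Map2k1 (1.06), and 4 fell.

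**Figure D4:**
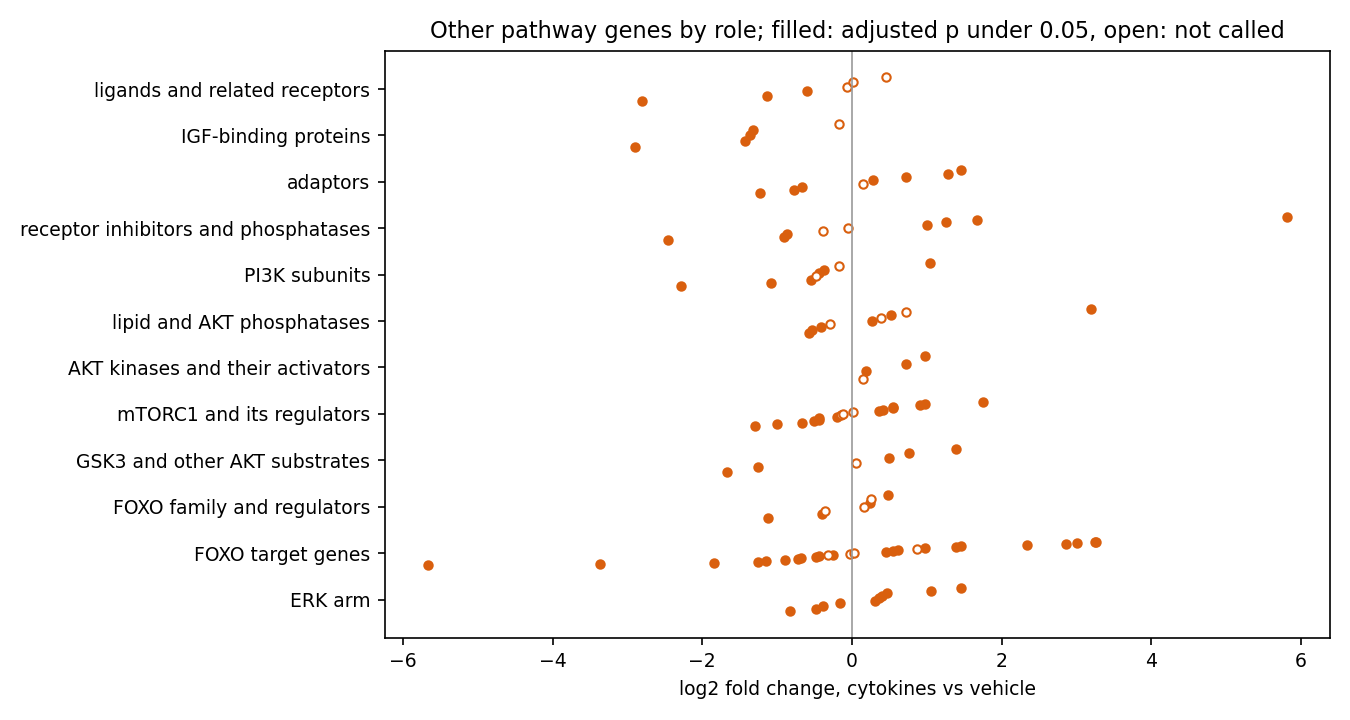
Log2 fold changes of the 115 wider pathway genes, cytokines against vehicle, 1 point a gene and 1 line a role, with called genes filled (vertical offsets only separate points). AKT kinases and activators have 3 genes called higher and 0 lower, IGF-binding proteins (with Igfals) 0 higher and 4 lower, and PI3K subunits 1 higher and 5 lower. Ligands and related receptors have 0 higher and 3 lower. The remaining roles had calls in both directions, such as mTORC1 genes (7 and 7), FOXO targets (11 and 11) and the ERK arm (6 and 4). Of all genes 35.3% were called higher and 37.2% lower.

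ML351 alone gave 0 calls of 115 in this list by edgeR, 12 at an unadjusted p under 0.05 and 3 calls by DESeq2. Of all 14089 genes 0.0355% were called by edgeR, 8.98% had such a p and DESeq2 called 110. In the combination against cytokines 2 of 115 were called by edgeR, with 7 by DESeq2, against 1.43% of all genes by edgeR and 527 of 14089 by DESeq2. Mapk3, the kinase ERK1, went from 187 to 149 CPM (log2 fold change -0.33, SE 0.055, edgeR adjusted p = 0.01) and kept this call in each of 20 alternatives. Without cytokines Mapk3 was also lower with ML351, at 119 ± 7.25 CPM against 142 ± 2.64 CPM in vehicle. Those groups did not overlap, but edgeR did not call that difference. Tbc1d4, an AKT substrate in glucose transporter traffic, went from 1.71 to 3.11 CPM (0.85, SE 0.20, adjusted p = 0.0492), and that call was lost in 16 of 20 alternatives, with adjusted p from 0.0278 to 0.149. The interaction gave 0 calls by edgeR and 15 of 115 at an unadjusted p under 0.05, against 8.23% of all genes.

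The genes whose levels ran most like each core gene over the 12 libraries were found by Pearson correlation of log2 CPM, given as a description because the libraries share groups and depth. Irs1 ran with Zfp941 (r = 0.997) and Kremen1 (0.997), Pik3r1 with Pigg (0.995) and Sfxn2 (0.995), and Foxo1 with Zmynd8 (0.995) and Bmp1 (0.993). Akt1 ran with Trappc12 (0.989) and Adra2a (0.989), and Akt2 with St6galnac4 (0.996) and Ets2 (0.994). Foxo3 ran with Tomm40 (0.973) and Leo1 (0.971), Igf1r with Metap1d (0.964) and Klhdc10 (0.960), and Insr with Phlda1 (0.960) and Itgb3 (0.947). Irs2 had the lowest values, with Ankib1 (0.847) and Gabpb2 (0.825).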

How the data were processed

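RNA sequencing counts of 12 islet libraries were used. The deposited values are whole-number counts of reads per gene symbol, 1 column per library, not normalized. Per the labels' protocols the kit was SMARTSeq v4, and STAR, featureCounts, Subread, FastQC, DESeq2 and the build mm10 are listed in the submitters' processing notes. The annotation is not given in the sources used here. Groups came from the labelled treatments.

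Genes were tested with edgeR 4.0.16 (R 4.3.3): TMM scaling, filterByExpr (no gene removed), robust glmQLFit and glmQLFTest on all 12 libraries in 1 model. Benjamini-Hochberg adjustment ran over 14089 genes per contrast, and genes were called at 0.05. Each SE was taken from the fold change and F. CPM per kb uses exon lengths of GENCODE M21, which held 13589 of the symbols. The steps were tested on simulated data in which few genes changed, evenly in both directions. The scaling under a change as broad as that with cytokines was therefore not tested by simulation. Alternatives were DESeq2 1.42.0, voom of limma 3.58.1, RLE factors, library totals alone, other filters, only the groups compared, a replicate block and leaving out each library. No library pair of a group agreed within sampling noise.

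Named genes were the 9 members, in each role of the wider list the 3 with the smallest p for cytokines against vehicle, genes called in other contrasts (up to 5 each), 13 further genes (some named by this rule are not reported here) and, for likeness, the 2 with the highest correlation (prior count 2, average log2 CPM at least 3). The members and lists were chosen with earlier results of these data known.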

Additional observations from a re-analysis of the deposited data

How the results depend on the processing

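Over 891 recomputed values of the 9 genes, 839 kept their direction and side of the threshold, 6 lost a call (all in the combination against ML351, for Insr and Foxo3), 1 gained a call and 45 changed sign without being called. The 8 calls of cytokines against vehicle held in each of 20 alternatives. The cause of the changes below was not tested.

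Counts of called genes moved where few genes were called. For ML351 against vehicle, 5 genes of all were called by edgeR, 110 by DESeq2, 16 with only the groups compared, 0 with RLE factors and 0 with the replicate block, and 0 to 17 without a library in turn. Of the 9 genes DESeq2 called 1, and of the wider list it called 3 and the groups alone 1, with 0 to 1 without a library. For the combination against cytokines, 202 genes of all were called, with 527 by DESeq2, 78 with library totals alone, 59 with only the groups compared, 53 with the replicate block and 54 to 236 without a library. Of the wider list 2 were called, with 7 by DESeq2, 1 with library totals alone, voom, the groups alone or the replicate block, and 1 to 3 without a library. For the interaction, 1 gene of all was called, with 58 by DESeq2, 0 with library totals alone, voom or the replicate block, and 0 to 1 without a library.

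Log2 fold changes near 0 changed sign. With library totals alone, ML351 against vehicle gave 0.037 for Irs1, 0.039 for Akt1 and 0.047 for Akt2, the combination against cytokines gave 0.0045 for Insr, 0.013 for Akt1 and 0.020 for Akt2, and the combination against ML351 gave -0.068 for Irs2. With the replicate block Irs2 gave 0.0088 for cytokines against vehicle and -0.0079 for the combination against ML351. Leaving out a library moved Irs2 between -0.099 and 0.036 for cytokines against vehicle and between -0.035 and 0.080 for the combination against ML351. It moved ML351 against vehicle between -0.064 and 0.067 for Insr, -0.15 and 0.074 for Irs1, -0.049 and 0.0016 for Akt1, and -0.058 and 0.018 for Akt2. It moved the combination against cytokines between -0.17 and 0.017 for Insr, -0.092 and 0.027 for Akt1, -0.068 and 0.00090 for Akt2, and -0.20 and 0.0074 for Foxo1.

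Replicate numbers are shared between groups in the labels, and the block was fitted on them. Of 13 same-numbered pairs, correlations of deviations ran from -0.35 to 0.31 with 3 over 0.1, and 3 of 12 libraries correlated best with their own number. The block took the Insr call from the combination against ML351 (0.33, adjusted p = 0.0554) and no other call of the 9 genes. Depth limits Irs1 and Foxo3, which had 21 to 182 and 29 to 103 counts a library.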
